A study of Mus musculus with 6 samples.

Results

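The genes of threonine, serine and one-carbon metabolism were taken as all non-control probes of the array whose gene name was Tdh, Gcat, Gldc, Shmt1, Shmt2, Mthfd1, Mthfd2, Psat1, Phgdh or Psph. They are 10 of the 28786 genes named on the array and 15 of its 41174 probes, and all 15 probes entered the test. RNA of mouse embryonic stem cells (mES) and of epiblast stem cells (EpiSC) was hybridised to 6 one-colour Agilent arrays, 3 per group. ES lines come from embryos before implantation, and EpiSC lines from the epiblast once the embryo has implanted. The mES arrays held the lines ESF122 (replicate 1), ESF175/1 (replicate 2) and ESF58/2 (replicate 3, whose source is given as ESF58/1), each grown with LIF. The EpiSC arrays held line EpiSC-5 (replicate 1) and line EpiSC-7 at passage 20 (replicate 2) and passage 25 (replicate 3), grown with FGF2, so that 3 EpiSC samples came from 2 lines. All cultures stood on irradiated mouse embryonic fibroblasts (MEFs), in DMEM with KSR, BME, L-glutamine and NEAA, a supplement that supplies serine and glycine. No genetic change is named in the labels.

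Values are scaled signals, the processed signal of a probe divided by the 75th percentile of all probes on its array, and they are compared between arrays and not between probes. In this RNA from whole cultures, fewer cells of a type and less RNA per cell cannot be told apart. The labels held against known markers. Of 8 naive-state markers 8 were lower in EpiSC, among them Zfp42 (log2 fold change -10.53 ± 0.42, SE, n = 3 per group, limma adjusted p = 8.1e-05), and of 6 postimplantation epiblast markers 6 were higher, among them Fgf5 (7.74 ± 1.10, adjusted p = 0.00506). The Oct4 gene Pou5f1 did not pass (-0.67 ± 0.37, adjusted p = 0.218). Each slide held arrays of 1 group only, so cell type, slide, scan and growth factor (LIF or FGF2) cannot be told apart. The summed scaled signal of the defining fibroblast markers Col1a1, Col3a1, Dcn, Thy1 and Postn was 44.3, 8.13 and 86.8 on mES replicates 1 to 3 and 62.1, 37.0 and 4.51 on EpiSC replicates 1 to 3, so that mES replicate 2 and EpiSC replicate 3 stood low. Of 6 defining markers, Col1a2 included, 0 passed in limma, 0 had an unadjusted p under 0.05, and 0 were at 0. Over all 15 fibroblast markers the sum of the 14 with no missing value ranged from 55.6 to 186 in mES and from 96.6 to 163 in EpiSC, with 1 marker called higher and 1 lower. Of 5 tested markers of primitive and visceral endoderm 3 were higher in EpiSC, against 11.8% of all genes tested. Gata4 (-0.24) and Apoa1 (2.40) did not pass in limma. The summed scaled signal of the 5 moved with the groups, 0.988 to 1.69 in mES and 3.92 to 26.2 in EpiSC, highest in EpiSC-5. Afp, above background on 3 arrays, did not enter the test, and Ttr was not above background on any array. The part of these markers in the results was not tested.

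One-carbon metabolism moves carbon units on tetrahydrofolate, a folate carrier, and uses them to build purines, thymidylate and methionine. The units come mainly from serine and glycine. Cells make serine from a glycolytic intermediate through Phgdh, Psat1 and Psph, and turn it into glycine through Shmt1 in the cytosol or Shmt2 in mitochondria. Mouse ES cells are known for a further source, the breakdown of threonine by the mitochondrial enzyme Tdh, whose product Gcat splits into glycine and acetyl-CoA, and for their need of threonine in the medium. The glycine cleavage system, of which Gldc is the decarboxylating subunit, then releases a carbon unit from glycine. Mthfd1 in the cytosol and Mthfd2 in mitochondria interconvert the folates that carry such units.

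Promoters are printed for the 4 genes that were lower in EpiSC and have an entry in the RefSeq promoter table (GRCm38.p6). The table gave 10 promoters for 9 of the 10 genes and held no entry for Tdh, which is named only. Each runs 5′ to 3′ from 250 bases before to 50 after the annotated start, with matches on either strand to CACGTG (the E-box, bound by Myc family factors) or CCAAT (the CCAAT box) in capitals.
Gcat promoter, chr15:79030624-79030923, plus strand: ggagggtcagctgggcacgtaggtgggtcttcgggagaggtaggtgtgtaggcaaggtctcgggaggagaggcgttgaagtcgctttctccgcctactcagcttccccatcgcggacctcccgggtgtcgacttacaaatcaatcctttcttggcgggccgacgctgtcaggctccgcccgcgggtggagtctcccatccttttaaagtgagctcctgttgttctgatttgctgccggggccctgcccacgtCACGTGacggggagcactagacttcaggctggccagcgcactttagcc
Gldc promoter, chr19:30175392-30175691, minus strand: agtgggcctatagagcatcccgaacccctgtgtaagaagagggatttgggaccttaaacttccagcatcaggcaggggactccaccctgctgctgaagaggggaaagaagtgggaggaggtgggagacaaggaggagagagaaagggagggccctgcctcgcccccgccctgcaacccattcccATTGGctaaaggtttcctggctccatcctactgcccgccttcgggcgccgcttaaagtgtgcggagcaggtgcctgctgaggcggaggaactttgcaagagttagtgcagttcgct
Mthfd1 promoter, chr12:76254982-76255281, plus strand: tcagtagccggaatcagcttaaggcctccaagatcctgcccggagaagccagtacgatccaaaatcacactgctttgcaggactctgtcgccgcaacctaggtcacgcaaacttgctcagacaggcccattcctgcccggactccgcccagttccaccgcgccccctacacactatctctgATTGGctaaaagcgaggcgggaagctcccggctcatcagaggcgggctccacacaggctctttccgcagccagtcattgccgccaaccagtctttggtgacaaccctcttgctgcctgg
Psph promoter, chr5:129787204-129787503, minus strand: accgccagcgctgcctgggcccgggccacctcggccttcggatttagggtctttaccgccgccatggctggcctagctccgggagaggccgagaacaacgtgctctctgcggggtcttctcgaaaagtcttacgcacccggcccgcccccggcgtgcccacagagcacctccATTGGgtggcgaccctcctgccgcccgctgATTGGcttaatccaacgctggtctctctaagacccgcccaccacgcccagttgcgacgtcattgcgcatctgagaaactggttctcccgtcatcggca
The 5 motifs searched do not overlap each other in these windows. The E-box was found in 1 of the 10 promoters, that of Gcat, against 7.15% of all 32851 promoters. The CCAAT box, which was added after the sequences were seen, was found in 7 of 10, against 37.4% of all. It stood in 3 of the 4 promoters printed and in promoters of 4 of the 5 other genes with an entry, Shmt1, Mthfd2, Psat1 and Phgdh, whose genes did not pass the test below. TGATGNAAN, the response element of the amino acid stress factor ATF4, was found in 0 of 10 (3.95% of all), TCAAGGTCA, the Esrrb motif, in 0 (0.423% of all), and ATGCAAAT, the Oct4 octamer, in 0 (1.74% of all).

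The comparison of EpiSC with mES cells gave 5 genes lower in EpiSC, Tdh, Gcat, Gldc, Mthfd1 and Psph, and 0 higher, of 10. All 10 log2 fold changes were negative at the probe that stands for the gene, so that 0 were higher at an unadjusted p under 0.05 too. With quantile normalization those of Phgdh (0.127) and Psat1 (0.105) were positive. Among all 20689 genes tested, 14.5% passed in the lower direction (adjusted p under 0.05 in limma), 11.8% in the higher and 26.3% in either. The median log2 fold change was -0.64 over the 10 genes and -0.11 over all genes. Tdh had the largest change, 261-fold, against 1.72-fold to 2.82-fold for the other genes that passed. The groups did not overlap for the same 5 genes, a pattern met by 48.5% of all genes.

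**Figure D1:**
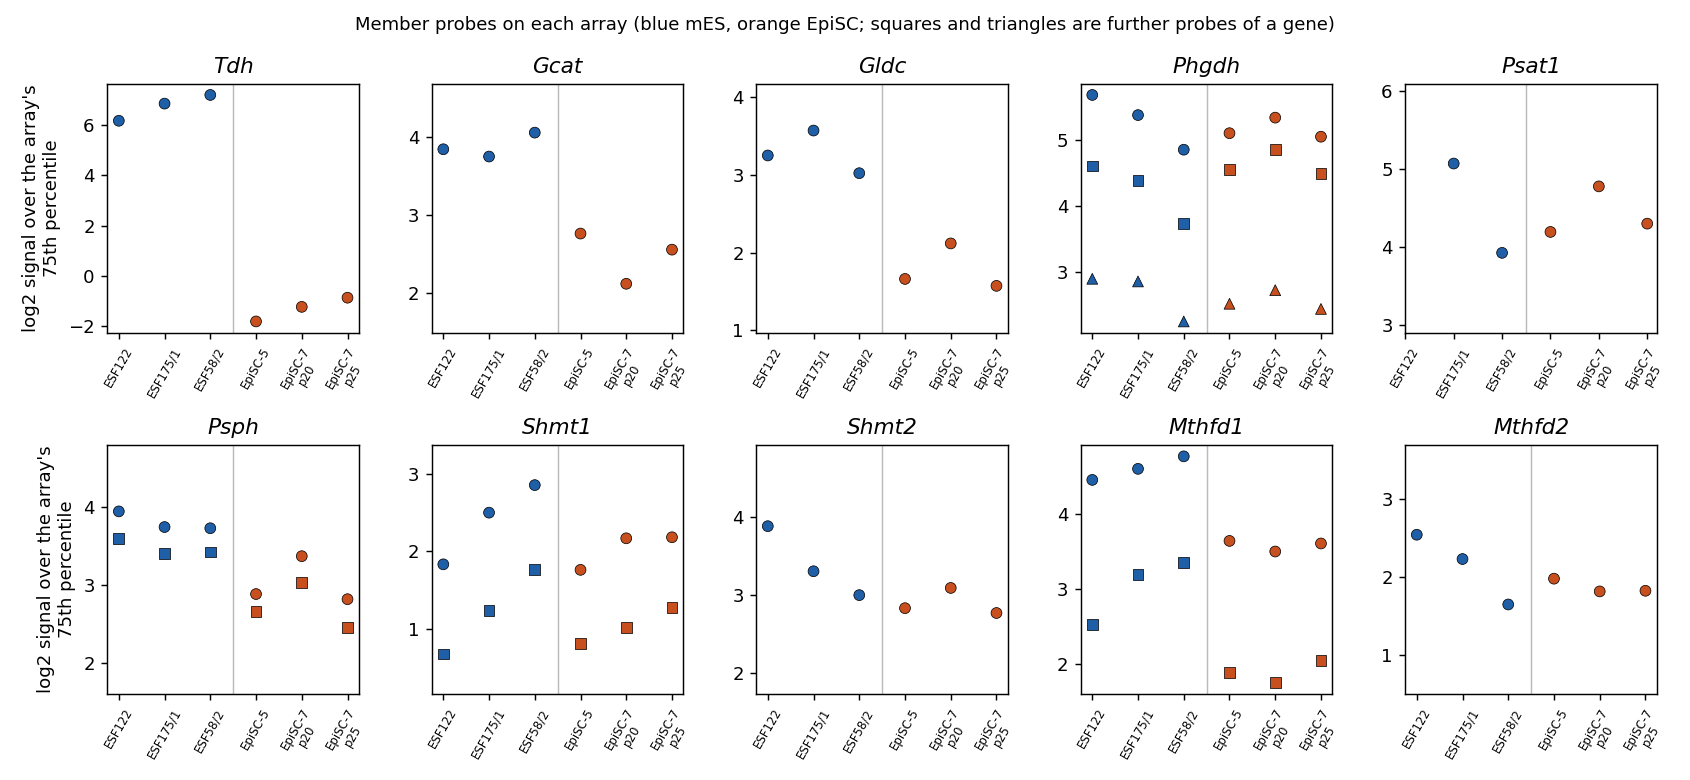
Log2 scaled signal (vertical axis) of every probe of the 10 genes on the 6 arrays (horizontal axis), blue for mES and orange for EpiSC. Circles are the probe that stands for the gene, and squares and triangles its further probes. The vertical axes differ between genes and each spans at least 3.2 units, and Psat1 has no value on ESF122. Tdh, Gcat, Gldc, Psph and Mthfd1 separate the groups at every probe.

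Tdh, the enzyme that starts threonine breakdown, was read at a scaled signal of 72.0, 115 and 146 on mES replicates 1 to 3 and of 0.287, 0.429 and 0.552 on EpiSC replicates 1 to 3. All mES values lay far above all EpiSC values, and the probe was well above background on all 6 arrays. The log2 fold change was -8.03 ± 0.35 (SE, n = 3 per group, limma adjusted p = 0.000108), with a 95% interval of -8.87 to -7.19. It was the 28th lowest of 20689 genes. Over 22 alternative settings it ranged from -8.31 to -7.75 and passed wherever a test was made (highest adjusted p = 0.00535). Among the mES lines ESF58/2 was highest and ESF122 lowest, 2.03-fold apart, and EpiSC-5 was lower than both EpiSC-7 arrays.

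Gcat, which acts on the product of Tdh, was read at 14.4, 13.5 and 16.7 on mES replicates 1 to 3 and at 6.80, 4.35 and 5.89 on EpiSC replicates 1 to 3. All mES values lay above all EpiSC values. Gcat fell by 1.41 ± 0.22 on the log2 scale (2.65-fold, adjusted p = 0.00671). Gldc, the glycine-decarboxylating subunit of the mitochondrial glycine cleavage system, was read at 9.49, 11.8 and 8.11 in mES and at 3.16, 4.34 and 2.97 in EpiSC, again without overlap. Its log2 fold change was -1.49 ± 0.23 (2.82-fold lower, adjusted p = 0.00663). Both genes passed in 6 of 6 fits with 1 array left out. In fits of 4 arrays Gcat did not pass with the arrays from slide position 4 alone (-1.36, adjusted p = 0.0543). With only the 4 arrays higher in fibroblast markers (mES replicates 1 and 3, EpiSC replicates 1 and 2), Gcat (-1.51, adjusted p = 0.0598) and Gldc (-1.24, adjusted p = 0.0693) did not pass either, while Tdh did (-8.19, adjusted p = 0.00535).

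The other subunits of the glycine cleavage system that were tested did not pass. The H protein gene Gcsh stood at -0.18 ± 0.25 on the log2 scale (limma adjusted p = 0.618), and the dihydrolipoamide dehydrogenase gene Dld, which other mitochondrial complexes share, at 0.29 ± 0.17 (adjusted p = 0.245). No probe on the array was named for Amt, the aminomethyltransferase subunit, so it was not tested. Without mES replicate 2 the sign of Gcsh turned (0.06).

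**Figure D2:**
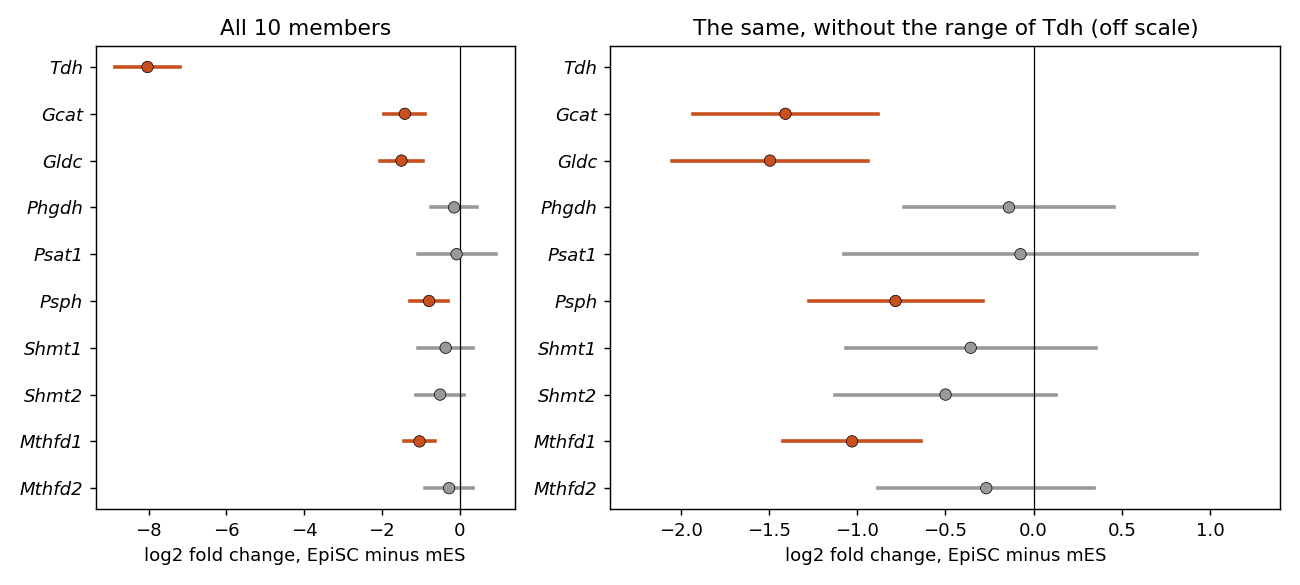
Log2 fold change, EpiSC minus mES, of the 10 genes with its 95% interval from limma (n = 3 arrays per group, 2 in mES for Psat1), at full scale on the left and enlarged on the right, where Tdh lies outside the axis. Orange genes passed at an adjusted p under 0.05 and grey genes did not. Tdh stands at -8.03, and the intervals of Gcat, Gldc, Mthfd1 and Psph lie below 0.

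Of the 3 serine synthesis genes, only Psph, the phosphatase of the last step, passed. Phgdh, the dehydrogenase that opens the pathway, was read at its brightest probe at 51.0, 41.3 and 28.8 on mES replicates 1 to 3 and at 34.2, 40.2 and 33.0 on EpiSC replicates 1 to 3. The EpiSC values lay inside the mES range. The log2 fold change was -0.14 ± 0.25 (adjusted p = 0.698), with an interval of -0.73 to 0.45, and the other probes of Phgdh gave 0.39 and -0.11. Psat1, the aminotransferase of the second step, was read at 33.6 and 15.2 on mES replicates 2 and 3 and at 18.3, 27.4 and 19.7 in EpiSC. Its spot on mES replicate 1 was marked as an outlier and left out, and the interval was wide, -1.08 to 0.93 (log2 fold change -0.07 ± 0.40, adjusted p = 0.903). The signs of Phgdh and Psat1 turned with quantile normalization (0.13 and 0.11). They turned too for Phgdh without mES replicate 1 (0.05) and for Psat1 without mES replicate 2 (0.50) or EpiSC replicate 1 (0.04).

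Psph was read at 15.4, 13.4 and 13.3 in mES and at 7.39, 10.4 and 7.06 in EpiSC, with EpiSC-7 at passage 20 nearest to the mES lines. It fell by 0.78 ± 0.21 on the log2 scale (1.72-fold, adjusted p = 0.0352), and its other probe fell by 0.76 (adjusted p over 29552 probes, 0.0372). Of those probes 26.1% passed in either direction, 13.9% lower and 12.2% higher in EpiSC. The call rests on few arrays. It was made in 1 of 6 fits with 1 array left out, without EpiSC replicate 2 (log2 fold change -0.96, adjusted p = 0.0212). The adjusted p was 0.105, 0.0812 and 0.0604 without mES replicates 1, 2 and 3, and 0.109 and 0.108 without EpiSC replicates 1 and 3. It was also missed with quantile normalization (-0.63, adjusted p = 0.0587), with position 4 only (-0.72, adjusted p = 0.136) and with the 4 arrays higher in fibroblast markers (-0.71, adjusted p = 0.191).

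The enzymes that exchange serine and glycine did not pass in either compartment. Shmt1, the cytosolic form, was read at 3.56, 5.65 and 7.22 on mES replicates 1 to 3 and at 3.39, 4.49 and 4.54 on EpiSC replicates 1 to 3, and the groups overlapped. Its log2 fold change was -0.36 ± 0.29 (adjusted p = 0.394, interval -1.07 to 0.35), and -0.19 at its other probe. Shmt2, the mitochondrial form, was read at 14.7, 9.86 and 7.97 in mES and at 7.10, 8.50 and 6.80 in EpiSC, with overlap through mES replicate 3. Its log2 fold change was -0.50 ± 0.26 (adjusted p = 0.197, interval -1.13 to 0.13).

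Of the pair of Mthfd genes, the cytosolic one passed. Mthfd1, whose protein joins formate to tetrahydrofolate and interconverts the products, was read at 22.0, 24.4 and 27.4 on mES replicates 1 to 3 and at 12.5, 11.3 and 12.2 on EpiSC replicates 1 to 3. The EpiSC values were close to each other and all lay below the mES values. Mthfd1 fell by 1.03 ± 0.16 on the log2 scale (2.04-fold, adjusted p = 0.00709), and its other probe by 1.14 ± 0.26 (adjusted p over all probes, 0.0218). It passed in 6 of 6 fits with 1 array left out, and not with the 4 arrays higher in fibroblast markers (-1.04, adjusted p = 0.0796). Mthfd2, the mitochondrial dehydrogenase and cyclohydrolase, was read at 5.83, 4.69 and 3.13 in mES and at 3.94, 3.52 and 3.54 in EpiSC. The EpiSC values lay inside the mES range, and the log2 fold change was -0.27 ± 0.25 (adjusted p = 0.457, interval -0.88 to 0.34). That one gene passed and the other did not does not show that the changes of Mthfd1 and Mthfd2 differ, which was not tested.

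The mES lines differed from each other in these genes, with 1 array per line and hence no test. ESF122 held the highest mES value of Shmt2, Mthfd2, Phgdh and Psph and the lowest of Tdh, Shmt1 and Mthfd1. ESF58/2 held the highest of Tdh, Gcat, Shmt1 and Mthfd1 and the lowest of Gldc, Shmt2, Mthfd2, Psat1, Phgdh and Psph. Shmt1 and Mthfd1 thus had the opposite order to Shmt2 and Mthfd2 in these lines, but the 10 genes did not divide by compartment: the mitochondrial Tdh and Gcat were highest in ESF58/2 with Shmt1 and Mthfd1, and the cytosolic Phgdh and Psph were highest in ESF122 with Shmt2 and Mthfd2. From ESF122 to ESF58/2, Shmt1 went from 3.56 to 7.22 (2.03-fold) and Shmt2 from 14.7 to 7.97, and the further probes of Shmt1 and Mthfd1 gave the same order of the lines as the brightest. Defining fibroblast markers were higher in ESF58/2 (86.8) than in ESF122 (44.3), these arrays lay at different positions of 1 slide, and the part of either in the difference was not tested. ESF175/1, low in those markers (8.13), lay between the other lines for Tdh, Shmt1, Shmt2, Mthfd1, Mthfd2, Phgdh and Psph.

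**Figure D3:**
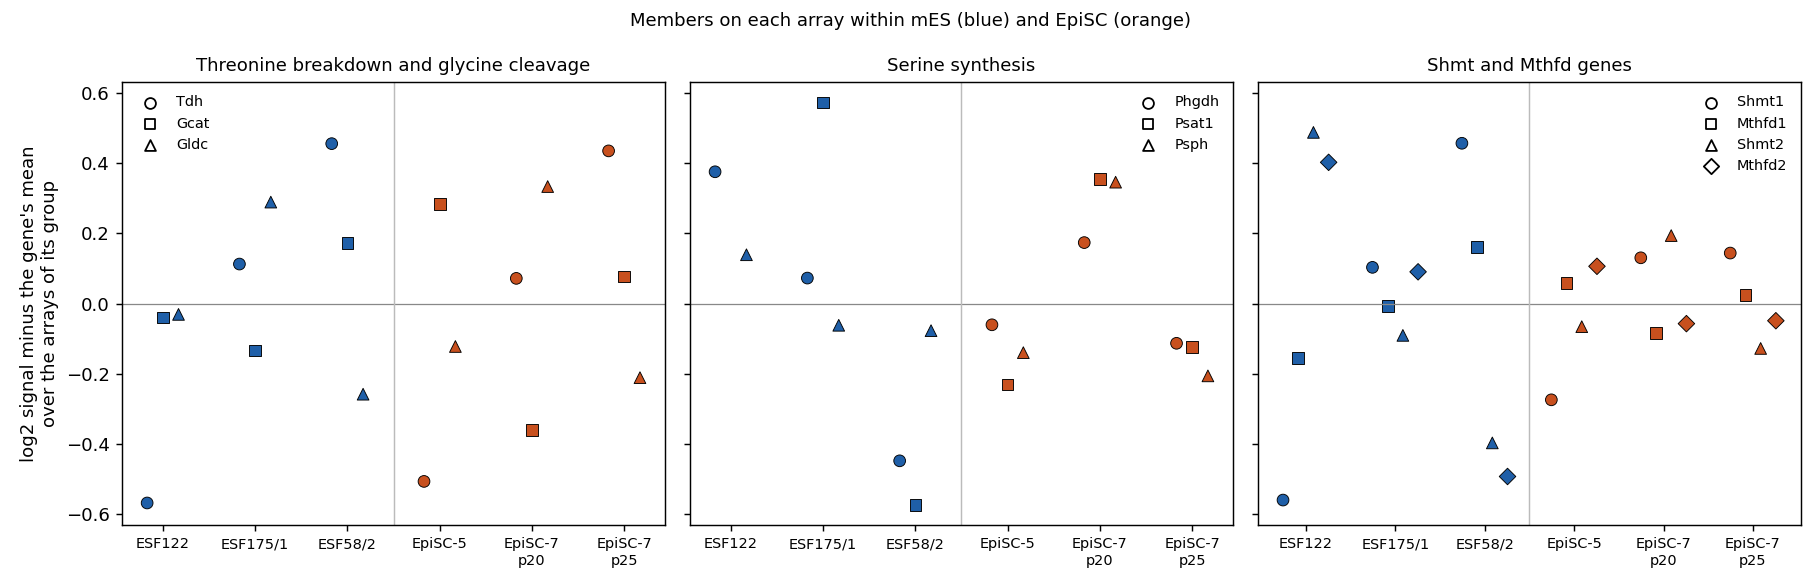
Log2 scaled signal of the 10 genes minus each gene's mean over the arrays of its group (vertical axis), on each array (horizontal axis), blue for mES and orange for EpiSC, with 1 point per gene and array and no value for Psat1 on ESF122. Tdh, Shmt1 and Mthfd1 are lowest in ESF122 and highest in ESF58/2, Shmt2, Mthfd2, Phgdh and Psph are highest in ESF122 and lowest in ESF58/2, Gcat is lowest and Gldc highest in ESF175/1, and Psat1 is lower in ESF58/2 than in ESF175/1.

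The SD of log2 values was smaller over the EpiSC than the mES arrays for the 10 genes except Gcat, Gldc and Psph. The mES arrays held 3 lines, while 2 of the EpiSC arrays held 1 line, and Psat1 had 2 mES values. These SDs thus do not measure the same spread. EpiSC-7 at passage 20 held the highest EpiSC value of Gldc, Shmt2, Psat1, Phgdh and Psph, and EpiSC-5 that of Gcat, Mthfd1 and Mthfd2. EpiSC-5 differed from the mean of the EpiSC-7 arrays by -0.76 for Tdh and 0.43 for Gcat on the log2 scale, and by -0.41 for Shmt1, with smaller differences for the other genes. Between passage 20 and passage 25 of EpiSC-7 the largest differences were -0.55 for Psph, -0.55 for Gldc, -0.48 for Psat1 and 0.44 for Gcat. There was 1 array per passage, and no test was made.

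A further list held partners of glycine cleavage and of serine and threonine breakdown, with genes of lysine breakdown and haem synthesis. Of its 10 tested genes 1 was higher and 2 were lower in EpiSC, where 26.3% of all genes tested passed in either direction. The list's median log2 change was -0.02. The serine dehydratase-like gene Sdsl was read at 0.0585, 0.0558 and 0.0483 in mES and at 0.952, 0.737 and 0.747 in EpiSC, and rose 14.9-fold (log2 fold change 3.90 ± 0.18, limma adjusted p = 0.000123). Aass, which opens lysine breakdown, fell 8.24-fold (-3.04 ± 0.48, adjusted p = 0.00719), and Alas1, which uses glycine to start haem synthesis, fell by 0.72 ± 0.15 (adjusted p = 0.0177). Sdsl and Aass passed in 6 of 6 fits with 1 array left out. Alas1 passed in 2, with an adjusted p of 0.0549 and 0.0642 without mES replicates 1 and 2 and of 0.0647 and 0.0501 without EpiSC replicates 1 and 3.

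In the folate cycle 2 of 12 tested genes were lower in EpiSC and 0 higher by limma (median -0.01). Among all genes tested 14.5% passed lower and 11.8% higher. At an unadjusted p under 0.05, 4 folate cycle genes were lower and 1 higher. Fpgs, which adds the glutamate tail that holds folates in the cell, was read at 18.6, 19.8 and 18.5 in mES and at 7.44, 8.52 and 7.99 in EpiSC (-1.25 ± 0.15, adjusted p = 0.00314). Ftcd, of histidine breakdown, gave a dim signal, 0.0955, 0.0958 and 0.0966 in mES and 0.0489, 0.0419 and 0.0228 in EpiSC. It fell by 1.41 ± 0.30 (adjusted p = 0.0183), with an adjusted p of 0.0522 and 0.0524 without mES replicates 1 and 2. Mthfd1l, whose mitochondrial enzyme releases formate, stood at 0.32 ± 0.23 (adjusted p = 0.333), and Tyms, which makes thymidylate, at -0.29 ± 0.20 (adjusted p = 0.315), and neither passed. The values of Mthfs (-0.59), Mtfmt (-0.71), Ggh (-0.32), Mthfsd (0.31), Aldh1l1 (0.26) and Aldh1l2 (0.37) did not pass.

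Of 5 genes of folate entry, the receptor genes Folr1 and Folr2 fell, and Slc19a1 (0.45), Slc46a1 (0.41) and Slc25a32 (-0.71), carriers in the cell or mitochondrial membrane, did not pass in limma. That made 2 lower and 0 higher (median -0.71), where 14.5% and 11.8% of all genes tested passed. At an unadjusted p under 0.05 the counts were 3 and 0. Folr1 was read at 15.1, 4.60 and 5.44 in mES and at 0.697, 0.502 and 0.932 in EpiSC (-3.39 ± 0.49, 10.5-fold lower, adjusted p = 0.00524), and its other probe fell less (-1.57). Folr2 fell 9.90-fold (-3.31 ± 0.42, adjusted p = 0.00369). Both passed in 6 of 6 fits with 1 array left out.

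In the methionine cycle and the transsulfuration that branches from it, 1 of 13 tested genes was higher and 2 were lower (median -0.51). The share of all genes tested that passed in either direction was 26.3%. Cbs, the first enzyme of transsulfuration, which takes up serine, was read at 0.346, 0.310 and 0.683 in mES and at 0.107, 0.0896 and 0.137 in EpiSC (-1.93 ± 0.34, 3.82-fold lower, adjusted p = 0.0105). Bhmt, which remakes methionine with betaine, gave a dim signal, 0.0804, 0.102 and 0.157 in mES and 0.0536, 0.0517 and 0.0419 in EpiSC. It fell by 1.16 ± 0.28 (adjusted p = 0.0269). Ahcyl1, a relative of the adenosylhomocysteine hydrolase, rose by 0.75 ± 0.19 (adjusted p = 0.0339). Its further probes gave 0.54, which did not pass (limma adjusted p over all probes, 0.109), and 1.70 (0.0294). Bhmt and Ahcyl1 each passed in 2 of 6 fits with 1 array left out. The adjusted p of Bhmt was 0.0632 without mES replicate 2 and 0.0649, 0.0599 and 0.0902 without EpiSC replicates 1, 2 and 3. That of Ahcyl1 was 0.103 and 0.0941 without mES replicates 1 and 2 and 0.107 and 0.104 without EpiSC replicates 1 and 3.

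Among 13 genes of the amino acid response, which switches on serine synthesis genes, and of serine pathway regulation, 1 was higher and 5 were lower. Their median was -0.63, and the list held enzymes such as Asns as well as regulators. In either direction 26.3% of all genes tested passed. Trib3, a pseudokinase and ATF4 target, fell by 2.12 ± 0.25 (4.35-fold, adjusted p = 0.00303). Sesn2, a leucine sensor, fell by 1.63 ± 0.18 (adjusted p = 0.00225), though its other probe stood at -0.05. Asns, which makes asparagine, was read at 77.8, 85.8 and 126 in mES and at 36.2, 51.6 and 33.5 in EpiSC (-1.25 ± 0.27, adjusted p = 0.0186; 0.0637 and 0.0667 without EpiSC replicates 1 and 3). Atf3 rose (2.31 ± 0.48, adjusted p = 0.0171; 0.0588 and 0.0625 without EpiSC replicates 1 and 3). The Atf4 gene itself did not pass at the RNA level (-0.06 ± 0.27, adjusted p = 0.883).

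Of 9 carriers of serine, glycine and threonine 1 was higher and 1 lower (median 0.18), against 26.3% of all genes tested in either direction. Slc1a5, a carrier of small neutral amino acids, was read at 12.9, 7.73 and 4.06 in mES and at 1.83, 1.82 and 1.80 in EpiSC (-2.03 ± 0.41, adjusted p = 0.0151; 0.0552 without EpiSC replicate 3). Slc7a10, which carries small neutral amino acids such as glycine and serine, was not well above background on any mES array. It passed as higher in EpiSC (limma adjusted p = 0.00104), in a test that used those mES values. The change was at least 1.29-fold, a bound set by the dimmest probes that were well above background on the mES arrays. That bound was not itself tested. With normexp Slc7a10 did not pass (0.18, adjusted p = 0.405).

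**Figure D4:**
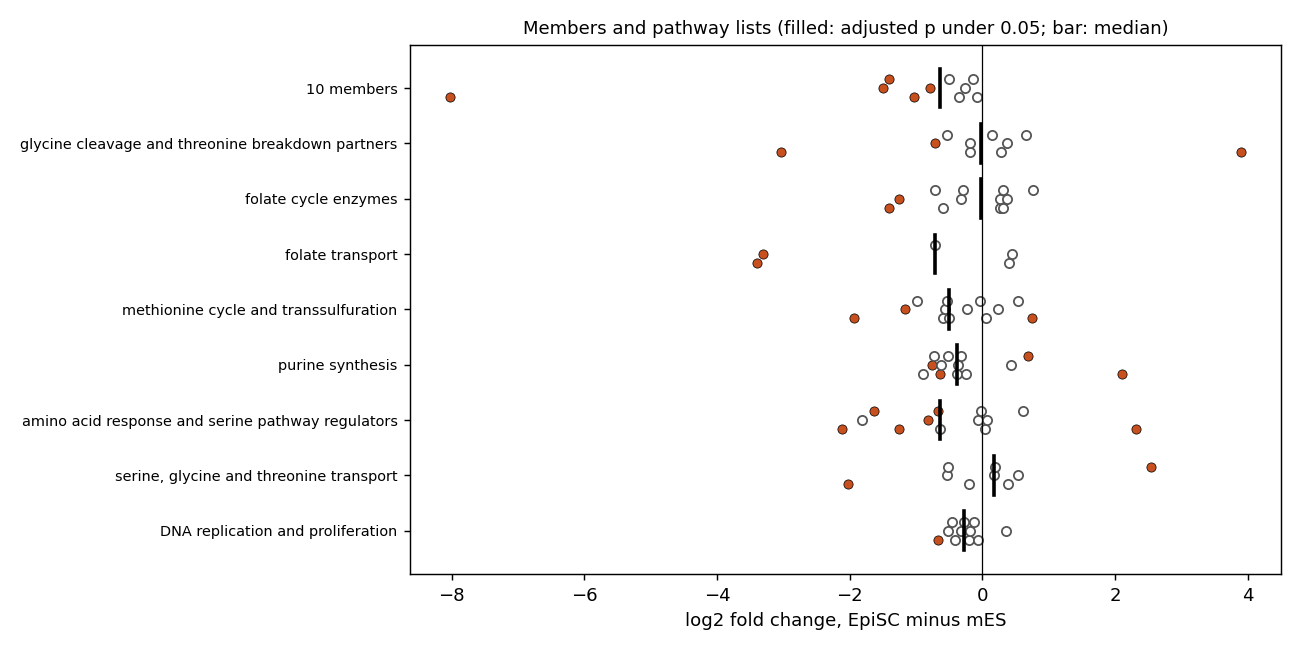
Log2 fold change, EpiSC minus mES (horizontal axis), of each tested gene of the 10 members and of 8 related lists (rows). Filled points passed at an adjusted p under 0.05, open points did not, and the bar is the median of the list. Tdh at -8.03 lies farthest from 0, and Sdsl at 3.90 is the highest value shown.

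The genes whose pattern over the 6 arrays was most like that of Tdh were sought among 20637 genes with no missing value, by the root mean square difference of log2 values centred on each gene's mean. The 5 with the smallest difference were Accsl (listed as Gm1967), Tex14, Triml1 (listed as BC050188), 2410003J06Rik (0.48) and Khdc3 (listed as 2410004A20Rik, 0.50). Accsl and Tex14 were not well above background on any EpiSC array, and Triml1 was so on some of them only, so their likeness to Tdh was not measured on the EpiSC side and their order has no meaning. The measure is set mainly by the size of the difference between the groups, and it is a description of these 6 arrays.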

How the data were processed

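Total RNA was extracted with TRIzol and labelled with Cy3, per the labels' protocols. The authors deposited the scanner files of 6 one-colour arrays (45018 spots each), whose values are intensities on a linear scale made with Agilent Feature Extraction (version 9.1.3.1), which removed spatial and multiplicative trends but no local background, per the file headers. The deposited value table holds the same processed intensity, rounded (largest log2 difference 0.00716), with 0 columns unused. The flag columns deposited in the files are the scores of 0 or 1 that Feature Extraction gives for outliers and for signals well above background. Genome build of the probes: not given in the sources used here.

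Control spots and outlier spots (12 to 24 per array) were left out, 0 spots were saturated, log2 signals of 1 probe were averaged, and each array's 75th percentile (599 to 935 in signal units) was subtracted. Median signals ran from 74.6 to 126, with 66.2% to 75.4% of an array's probes well above background. Depth is not counted on arrays, and 3 arrays per group limit the precision. Entering probes were well above background throughout 1 group or both, with at most 1 missing value per group. A gene was its entering probe with the highest mean. Of 41174 probes 55.7% were named through RefSeq accessions and the rest kept the file's name. Arrays correlated at 0.973 to 0.981 within mES, 0.982 to 0.984 within EpiSC and 0.936 to 0.953 between groups (Pearson's r over probes). The test was limma's (version 3.58.1, R 4.3.3, lmFit, eBayes, no covariate, two-sided, Benjamini-Hochberg over 20689 genes, threshold 0.05). Its code was run on simulated data with independent noise. Those data lacked the shared line and slides of these arrays, so the run cannot show how well the p-values hold here. The labels separate replicates by line and passage only, so p-values reflect the spread between these cultures, which may be partly technical. They count the 2 EpiSC-7 arrays as independent, which can make them too small. With the EpiSC-7 arrays averaged, 4378 genes passed in limma. Tdh, Gcat, Gldc, Mthfd1 and Psph were still called lower, with adjusted p from 0.00108 (Tdh) to 0.0329 (Psph).

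The genes and lists were chosen with earlier results of these data known, and the list genes named follow a rule: up to 3 per list and direction past the threshold, with the folate cycle and glycine cleavage genes, of which some are not reported here. Alternatives covered background correction, scaling, probe filter, probe choice, slide, position, EpiSC-7 averaging and each array left out. The dimmest probe per gene and the 4 arrays higher in fibroblast markers were added after seeing the data.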

Additional observations from a re-analysis of the deposited data

How the results depend on the processing

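Tdh kept its direction and its call under every alternative that gave a test. No member was called higher in EpiSC under any of them. The number of members called lower was 3 with position 4 only and 1, Tdh, with the 4 arrays higher in fibroblast markers, fits of fewer arrays. With 1 array left out it ranged from 4 to 5. Calls lost by Gcat (-1.36 with position 4 only, -1.51 with those 4 arrays), Gldc (-1.24) and Mthfd1 (-1.04) came from these fits alone. Psph lost its call with quantile normalization (-0.628), position 4 only (-0.718) and the 4 arrays (-0.71), and its log2 fold change with 1 array left out ranged from -0.956 to -0.679. Shmt2 gained a call with the slide as a random block (-0.506), a fit whose correlation between arrays of a slide was negative (-0.68) and which called 11785 genes. Signs turned for Mthfd2 between the arrays at position 1 (0.176), for Psat1 with quantile normalization (0.105), at position 1 (0.375) and with the 4 arrays (0.561), and for Phgdh with quantile normalization (0.127), the mean of its probes (0.0478) and at position 1 (0.196). With 1 array left out Psat1 ranged from -0.648 to 0.499 and Phgdh from -0.364 to 0.0485; the cause was not tested.

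Of 20689 genes 5436 passed, against 8712 with no filter on dim probes, 2686 with position 4 only, 1548 with the 4 arrays and 2945 (without EpiSC replicate 3) to 4957 (without mES replicate 3) with 1 array left out. Genes of the 8 lists called higher were 6, against 15 under the random slide block, 2 with position 4 only, 2 with the 4 arrays and 2 to 7 with 1 array left out. Those called lower were 17, against 35, 9 and 5 in these fits and 9 to 17 with 1 array left out. The 8 lists held 10, 12, 5, 13, 13, 13, 9 and 11 tested genes. In the main fit 11.8% of all genes tested passed higher and 14.5% lower. Signs also turned for Aldh1l1 (-0.00987 without mES replicate 1, -0.00538 without EpiSC replicate 1, -0.48 at position 1, and up to 0.667 without mES replicate 3), Aldh1l2 (-0.132 with the mean of its probes, -0.634 at its dimmer probe, -0.0344 at position 1) and Gcsh (0.0582 without mES replicate 2, down to -0.31 without mES replicate 3, 0.164 with the 4 arrays). No paired analysis was possible because the labels give the arrays no shared replicate numbers. The precision is limited by 3 arrays per group.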

Other observations

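In purine synthesis 2 of 13 tested genes were higher in EpiSC and 2 lower (median log2 fold change -0.39), where 26.3% of all genes tested passed in either direction. Adssl1, an adenylosuccinate synthase, rose by 2.10 ± 0.50 (limma adjusted p = 0.0263), with an adjusted p of 0.076 and 0.0676 without mES replicates 1 and 2 and of 0.0569 without EpiSC replicate 3. Impdh1, of guanine nucleotide synthesis, rose by 0.70 ± 0.17 (adjusted p = 0.0276) and passed in 2 of 6 fits with 1 array left out (0.0885 and 0.0601 without mES replicates 2 and 3, 0.0843 and 0.0857 without EpiSC replicates 1 and 3). The genes of de novo purine enzymes Pfas (-0.76 ± 0.22, adjusted p = 0.0466) and Adsl (-0.63 ± 0.17, adjusted p = 0.0347) fell, and each passed in 0 of 6 such fits, with an adjusted p of up to 0.118 and 0.102 without EpiSC replicate 1.

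At an unadjusted p under 0.05, 3 of 11 genes of DNA replication and proliferation were lower and 0 higher. By limma's adjusted p 1 was lower and 0 higher (median -0.27), where 14.5% and 11.8% of all genes tested passed. That gene, Mcm6 of the replicative helicase, was read at 122, 119 and 124 on mES replicates 1 to 3 and at 65.2, 85.3 and 79.1 on EpiSC replicates 1 to 3 (-0.67 ± 0.17, adjusted p = 0.0313). It passed in 1 of 6 fits with 1 array left out, without EpiSC replicate 2, and the adjusted p was 0.0967 without EpiSC replicate 1.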
